A study of Mus musculus with 18 samples.

Results

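The circular RNAs described here came from 5 mouse genes for subunits of the GABA-A receptor, Gabra4, Gabra5, Gabrb1, Gabrb2 and Gabrg3, and from Gphn, which encodes gephyrin. They were chosen by name: each circle whose deposited gene field held one of these 6 symbols was taken, whatever its level. Illumina sequencing listed 202 such circles of 208914 in all, and Oxford Nanopore (ONT) sequencing listed 95 of 166212. Both platforms listed 59 of them. The tissue was whole brain of male C57BL/6J mice aged 3 to 4 months. Wild type (WT) brains were compared with brains labelled Adar2KO, of genotype Adar2-/-Gria2R/R, and Adar1-2KO, of genotype Adar1E861A/E861A Ifih-/-Adar2-/-Gria2R/R. Both mutant groups therefore lacked Adar2 and carried the Gria2R allele, and the Adar1-2KO group differed from Adar2KO by the Adar1E861A allele and by the loss of Ifih. Each group had 3 Illumina libraries, and 3 ONT libraries in the mutants against 2 in WT, where ONT replicate 1 was not analysed here. Nothing in the labels ties a replicate to an animal of its own, so p-values measure the spread between these libraries, which may be technical.

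GABA-A receptors are pentameric chloride channels opened by the inhibitory transmitter GABA, and gephyrin is the scaffold that holds many of them at inhibitory synapses. Alpha subunits set much of a receptor's location and pharmacology. Alpha 4 and alpha 5 are known from receptors outside synapses, beta subunits are needed for assembly, and gamma subunits are needed for the response to benzodiazepines. A circular RNA forms when a splice donor joins an acceptor that lies before it in the transcript, a back-splice. Paired repeats in the flanking introns can favour this, and ADAR enzymes edit adenosines in such double-stranded RNA. Adar2 recodes glutamate receptor transcripts such as Gria2, and the Adar1E861A allele removes the editing activity of Adar1.

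The back-splice junction is what tells a circle from its linear transcript, so the junction of a leading circle of each gene is shown, for Gabra5 that of its circle of exons 3 to 5. Each line gives the last 30 bases before the back-splice in lower case and the first 30 bases after it in capitals, 5′ to 3′ on the strand of the gene. Positions are the GRCm39 positions in the deposited files. The letters were taken from GENCODE M21 transcripts (GRCm38) whose exon lengths matched the ONT reads. The Gabra4 circle lies at chr5:71781198-71799669 on the minus strand, that of Gabra5 at chr7:57138550-57140609 on the minus strand, and that of Gabrb1 at chr5:72265651-72279536 on the plus strand. The Gabrb2 circle lies at chr11:42482685-42488612 on the plus strand, that of Gabrg3 at chr7:56632373-56634911 on the minus strand, and that of Gphn at chr12:78637308-78684353 on the plus strand.
Gabra4: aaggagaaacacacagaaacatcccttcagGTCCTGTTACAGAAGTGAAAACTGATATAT
Gabra5: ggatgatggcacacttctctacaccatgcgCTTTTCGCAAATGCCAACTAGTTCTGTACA
Gabrb1: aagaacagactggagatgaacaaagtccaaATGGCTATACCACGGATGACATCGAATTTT
Gabrb2: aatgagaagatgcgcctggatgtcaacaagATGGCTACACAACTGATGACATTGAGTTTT
Gabrg3: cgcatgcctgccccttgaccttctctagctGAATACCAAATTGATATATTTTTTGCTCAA
Gphn: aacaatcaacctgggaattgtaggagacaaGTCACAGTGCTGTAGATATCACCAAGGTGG
The Gabrb1 and Gabrb2 junctions open alike after the back-splice, where both circles begin at the corresponding exon.

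All 5 receptor genes held a run of 3 exons of 68, 221 and 83 bases, and the circles cut this run in different ways. The leading Gabra4 circle spanned exons 3 to 8 of 9 in 929 bases, codons 69 to 378 of 551, and held the whole run. The Gabrg3 circle was made of the 221-base and 83-base exons alone, exons 4 to 5 of 10, and its 304 bases covered codons 91 to 192 of 466. The leading Gabra5 circle held exons 2 to 5 of 10 in 571 bases and stopped before the 83-base exon. The leading Gabrb1 and Gabrb2 circles lay after the run: exons 6 to 8 of 9 in Gabrb1 and exons 7 to 9 of 10 in Gabrb2, each of 138, 153 and 245 bases, 536 in all. The beta circles were thus of equal length, and 366 of their 536 bases were identical (68.3%).

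Both beta genes also gave a smaller circle of the first 2 of these exons, at chr5:72265651-72266179 in Gabrb1 and chr11:42482685-42484776 in Gabrb2. These 291-base units are printed because they show how far the paralogs share the circularised exons. They were identical at 213 bases (73.2%), and capitals mark the bases that differ.
Gabrb1: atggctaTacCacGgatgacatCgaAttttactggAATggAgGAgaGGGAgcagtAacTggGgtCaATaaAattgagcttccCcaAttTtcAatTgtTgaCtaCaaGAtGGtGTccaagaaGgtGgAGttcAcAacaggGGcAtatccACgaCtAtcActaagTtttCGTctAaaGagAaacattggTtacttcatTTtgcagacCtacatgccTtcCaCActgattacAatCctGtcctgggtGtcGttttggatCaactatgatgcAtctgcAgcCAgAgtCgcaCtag
Gabrb2: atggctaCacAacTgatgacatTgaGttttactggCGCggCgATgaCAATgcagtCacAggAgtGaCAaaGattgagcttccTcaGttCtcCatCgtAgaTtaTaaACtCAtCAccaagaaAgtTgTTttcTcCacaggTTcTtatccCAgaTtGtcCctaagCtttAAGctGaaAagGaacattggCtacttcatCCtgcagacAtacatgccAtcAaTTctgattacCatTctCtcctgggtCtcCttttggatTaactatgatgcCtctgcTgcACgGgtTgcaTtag
Differences occurred along the whole unit, and the junction windows printed before also differ between the paralogs.

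Gphn made circles from separate stretches of its 24 coding exons. Its leading circle held exons 12 to 18 in 742 bases, codons 336 to 583 of 768. A circle of exons 12 to 17, at chr12:78637308-78674034, held 620 bases, and a circle of exons 5 to 8, at chr12:78501531-78551525, held 570 bases and codons 99 to 288. Gephyrin has an amino-terminal G domain and a carboxy-terminal E domain joined by a linker, and the E domain binds receptors. Of the ONT reads of these genes, 3662 were in circles that came with an exon structure. In all, 92.1% of these reads were in circles whose most-read structure matched consecutive exons of an annotated transcript.

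**Figure D1:**
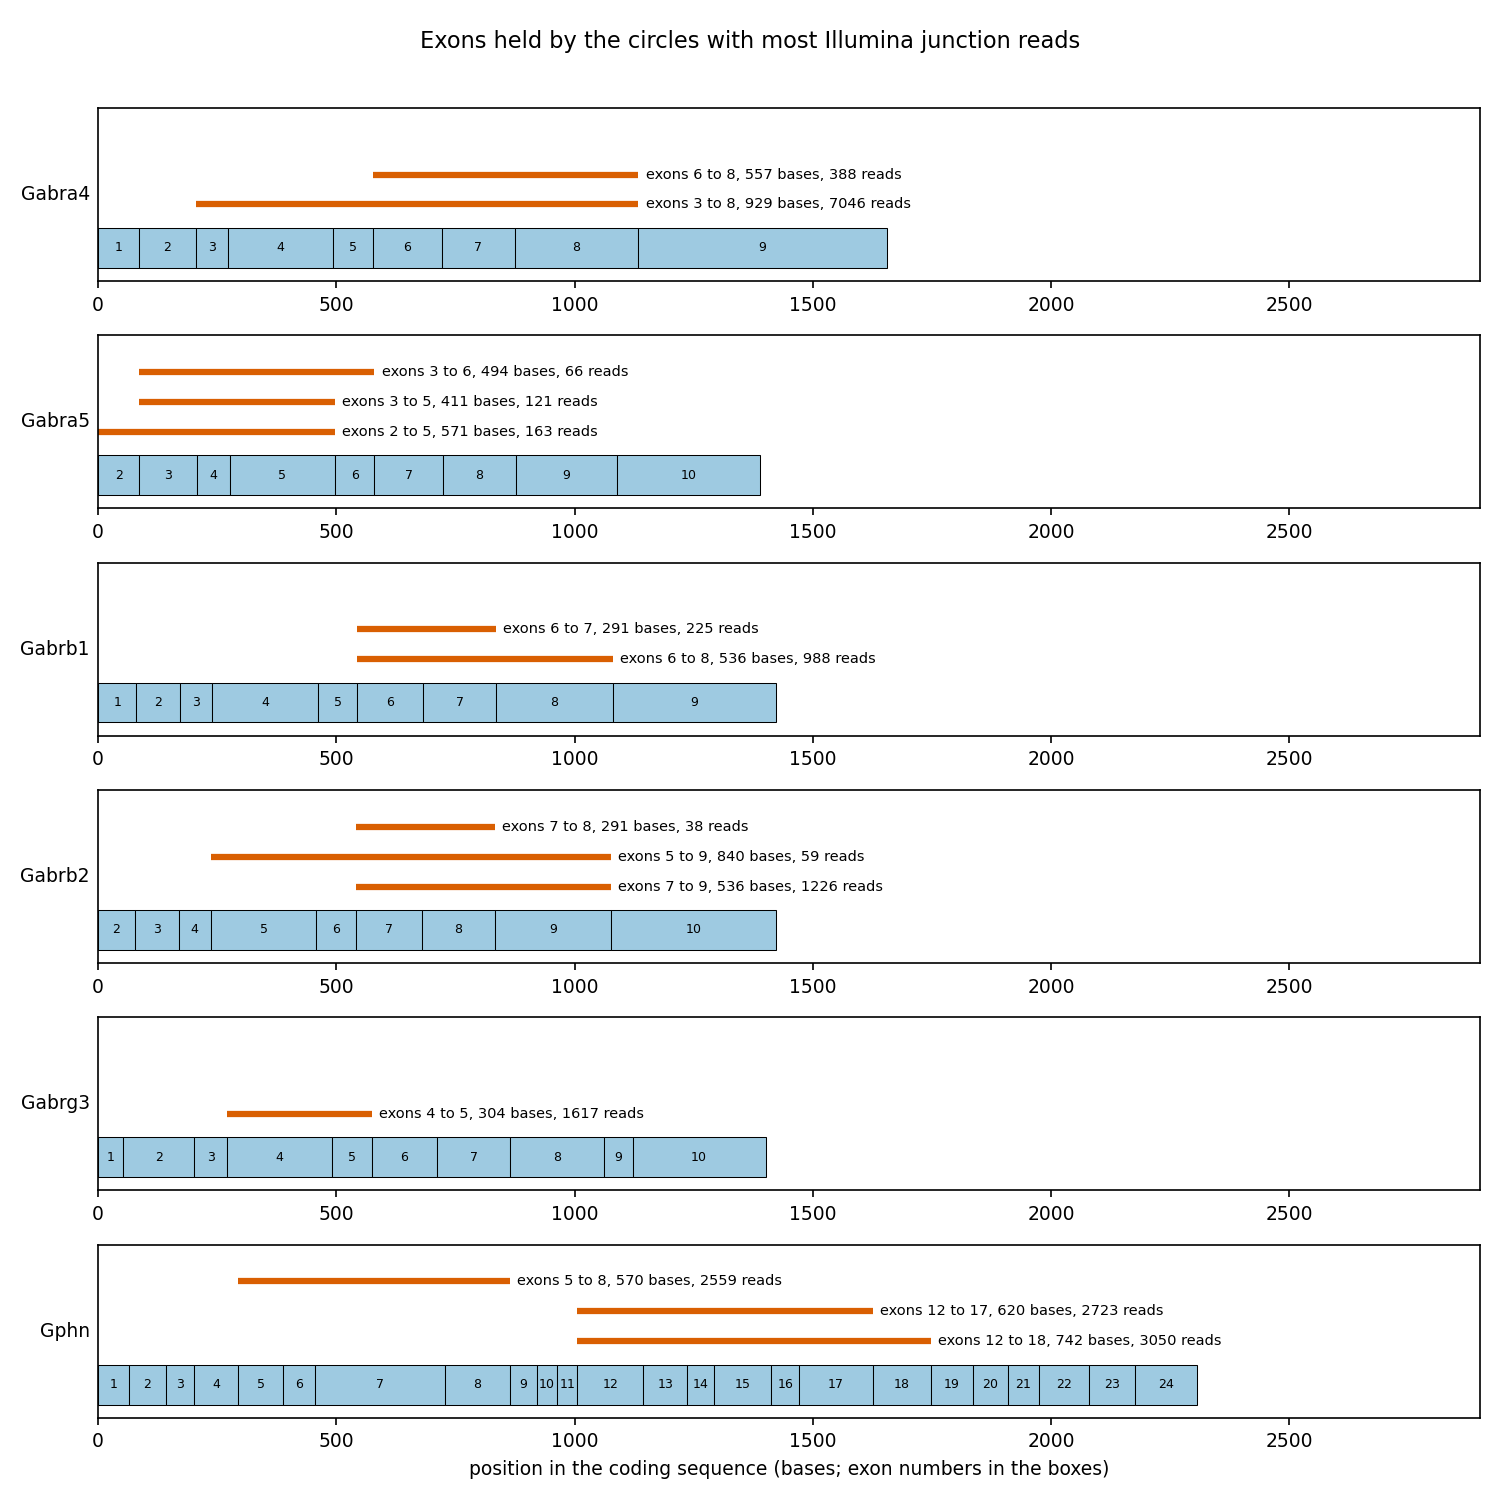
Boxes show the exons of an annotated transcript of each gene in its coding sequence (x axis, bases from the first coding base). Orange bars show named circles whose ONT structure matched that transcript, up to 3 per gene in order of Illumina junction reads. Labels give their length and reads. Circles without such a match are not drawn, among them the Gabrb2 circle of 139 reads at chr11:42517371-42519300. The Gabrb1 and Gabrb2 bars of 536 bases cover matching exons, and the Gphn bars fall into an exon 5 group and an exon 12 group. The Gabra5 bar of exons 2 to 5 shows only its coding bases.

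Of the library facts that touch these genes, the first is depth. The Illumina libraries held 1516772 to 4308264 back-splice reads and the ONT libraries 186594 to 673705 circular reads. Adar1-2KO replicate 3 stood apart on both platforms: it had the most reads, but on Illumina it listed only 21736 circles against 54244 to 76743 in the other libraries. In it 26 of the 50 tested circles of the 6 genes were at 0, against 4 to 13 in the others, and 59.1% of all tested circles were at 0, against 11.3% to 20.3%. Read names in the deposited junction tables placed the 3 WT libraries, Adar1-2KO replicate 2 and 87.4% of the junction reads of Adar2KO replicate 3 on 1 flow cell, called flow cell 1 here. Adar2KO replicates 1 and 2 and Adar1-2KO replicate 3 came from others, and for Adar1-2KO replicate 1 no such table was used here. Genotype and flow cell are therefore partly confounded, and several values below are also given without replicate 3. Host genes checked against the labels gave summed circle levels of 53.3 ± 9.92 CPM (reads scaled to the back-splice total of the library; SD, n = 3) for Adarb1, the gene of Adar2, in WT, 128 ± 23.0 in Adar2KO, then 141 ± 44.5 in Adar1-2KO. The labels do not say which part of the gene was deleted, so circle levels do not check the knockout. Gria2 circles stood at 319 ± 26.5, 192 ± 10.1 and 178 ± 21.4 CPM, and Adar circles at 36.9 ± 15.9, 32.9 ± 8.98 and 15.9 ± 11.9 CPM.

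The tissue label was checked by circles of marker genes. The 6 neuronal marker hosts summed to 1107 to 1353 CPM in WT, 1198 to 1277 in Adar2KO, then 1253 to 1639 in Adar1-2KO. Circles of the GABAergic interneuron markers summed to 165 to 219, 172 to 186 and 202 to 403 CPM, and 1 of those 7 markers, Slc32a1, had no listed circle. Oligodendrocyte lineage markers summed to 507 to 566 CPM in WT, 561 to 647 in Adar2KO, then 558 to 1152 in Adar1-2KO, so the low end overlapped. Cerebellar markers summed to 954 to 1086, 1140 to 1467 and 281 to 912 CPM. Among them Grm4 had 23585 reads and Gabra6 117. Thalamic markers summed to 48.1 to 81.6, 54.9 to 58.6 and 6.53 to 81.2 CPM. Astrocyte markers summed to 591 to 647 CPM in WT, 665 to 722 in Adar2KO, then 539 to 710 in Adar1-2KO. Over all libraries, microglial markers summed to 35.3 to 66.4 CPM, striatal markers to 602 to 959, and cortical and hippocampal markers to 223 to 483. The markers Aqp4, Csf1r, Cx3cr1, P2ry12, Pcp2, Cbln1 and Drd1 had no listed circle. No tested marker host of the 9 lists passed edgeR's test in any comparison. Of all 9918 hosts, 0.0403% passed in Adar2KO against WT, 0.0807% in Adar1-2KO against WT and 0.101% between the mutants. Some lists were thinly tested: 1 of 5 microglial, 2 of 5 cerebellar, 2 of 5 cortical and hippocampal, and 3 of 5 striatal markers. In whole brain, fewer cells of a type and less RNA per cell cannot be told apart, and the part of these differences in the results below was not tested.

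The 6 genes differed in how many circles they made. Over the 9 Illumina libraries the 202 circles gathered 26659 back-splice reads, of which Gphn had 13137 over 107 circles, Gabra4 8072 over 28, Gabrg3 1715 over 16, Gabrb1 1675 over 23, Gabrb2 1595 over 17 and Gabra5 465 over 11. By deposited type 145 circles were exonic, 56 intronic and 1 antisense, and exonic circles held 97.9% of the reads. Gabrb1 stood lower, with 17 intronic circles and 80.5% of its reads exonic. In Gabrg3 a single circle held 94.3% of all reads, in Gabra4 87.3%, in Gabrb2 76.9% and in Gabrb1 59.0%. Gabra5 and Gphn spread their reads wider, with 35.1% and 23.2% in the leading circle, and 12 Gphn circles had over 100 reads each. Of the 202 circles 87 were listed in only 1 library and 15 in all 9. The 50 that had at least 5 reads in at least 3 libraries entered the test and held 95.5% of the reads, and the other 152 were too sparse.

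In CPM, the leading circles in WT ran from Gabra4 (276 ± 35.5, SD, n = 3) through Gphn (128 ± 4.78) to Gabrg3 (46.4 ± 19.8). Gabrb2 (37.6 ± 2.82), Gabrb1 (32.3 ± 4.14) and Gabra5 (9.20 ± 2.50) followed. A circle has a single back-splice junction whatever its length, so these levels were not divided by length. The Gabrg3, Gabrb2 and Gabrb1 values overlapped. The remaining neighbours in this order were apart in all 3 WT libraries.

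The comparison of genotypes asked whether the circles of these genes differ between WT, Adar2KO and Adar1-2KO. Loss of Adar2 came with the Gria2R allele in both mutants, and the Adar1E861A allele came with loss of Ifih. The parts of each pair cannot be told apart here. Summed over all circles of a gene, none of the 6 hosts passed edgeR's quasi-likelihood test on Illumina at an adjusted p of 0.05, and none did with DESeq2. Against WT, 0 of 6 hosts in Adar2KO, then 1 of 6 in Adar1-2KO had an unadjusted p under 0.05, and 0 of 6 did between the mutants, beside 1.60%, 7.29% and 6.62% of all 9918 hosts tested. At the adjusted threshold, 0.0403% of all hosts passed in Adar2KO against WT, 0.0807% in Adar1-2KO against WT and 0.101% in Adar1-2KO against Adar2KO. The median log2 fold change of the 6 hosts was 0.10, 0.38 and 0.27 in these comparisons, and that of all hosts was 0.02, −0.07 and −0.12. The 3 comparisons share libraries, so their values are not independent of each other. The ONT hosts gave the same count of 0 of 6 in each comparison, while 0.0692%, 0.0346% and 1.0% of 5777 hosts passed. At an unadjusted p under 0.05 stood 0 of 6 in each, beside 5.61%, 10.3% and 13.3% of those hosts.

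The alpha subunit hosts gave fold changes within about 1 standard error. Gabra4 circles stood at 368, 332 and 293 CPM in the 3 WT libraries, 349, 294 and 296 in Adar2KO, then 294, 248 and 400 in Adar1-2KO. The groups overlapped, with the highest value in Adar1-2KO replicate 3. The log2 fold change was −0.08 ± 0.24 (SE) in Adar2KO and −0.07 ± 0.24 in Adar1-2KO against WT (edgeR adjusted p of 1.0 and 0.995). The sign of the last value depended on the scaling: with library sizes from mapped reads it was 0.31, where the median of all hosts also moved up. On ONT the Gabra4 values were 318 and 340 CPM in WT, 288, 324 and 424 in Adar2KO, then 282, 268 and 329 in Adar1-2KO, again overlapping.

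The leading Gabra4 circle set this pattern, with 973, 630 and 380 reads in WT, 773, 613 and 733 in Adar2KO, then 849, 451 and 1644 in Adar1-2KO. Its share of all Gabra4 reads was between 80.1% and 99.3% over the 9 libraries. A shorter circle of exons 6 to 8, at chr5:71781198-71795618, had 71, 17 and 21 reads in WT, 51, 44 and 84 in Adar2KO, then 65, 35 and 0 in Adar1-2KO. The 0 fell in replicate 3, the library with the most reads. A circle with its start close to that of the leading one, at chr5:71781198-71799657, had 52, 30 and 10 reads in WT, 24, 0 and 45 in Adar2KO, then 24, 17 and 3 in Adar1-2KO. A small circle at chr5:71728975-71729566 had 13, 12 and 10 reads in WT and 4, 4 and 6 in Adar2KO, with no overlap in CPM, but 11, 15 and 0 in Adar1-2KO.

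Gabra5 circles were the scarcest. They stood at 25.1, 17.2 and 23.5 CPM in WT, 21.8, 10.02 and 18.2 in Adar2KO, then 17.6, 13.2 and 20.6 in Adar1-2KO. The 3 groups overlapped, and the log2 fold changes against WT of −0.39 ± 0.56 and −0.35 ± 0.56 were within their errors. With library sizes from mapped reads the second was 0.02. ONT gave 24.8 and 21.6, then 24.2, 26.3 and 29.9, then 25.0, 20.6 and 35.4 CPM.

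Within Gabra5 the circles ordered the libraries differently. Its leading circle, of exons 2 to 5 at chr7:57138550-57157886, had 38, 18 and 12 reads in WT, 19, 20 and 30 in Adar2KO, then 17, 9 and 0 in Adar1-2KO. In CPM all Adar1-2KO values (5.05, 3.96 and 0) lay below all WT (7.53 to 12.1) and all Adar2KO values (7.36 to 10.03). A scarce circle at chr7:57138550-57158305 had 8, 5 and 4 reads in WT, 2, 0 and 3 in Adar2KO, then 5, 4 and 0 in Adar1-2KO, below WT in both mutants in CPM. A circle of exons 3 to 5, whose junction is printed above, had 2, 6 and 2 reads in WT, 4, 0 and 3 in Adar2KO, then 14, 5 and 85 in Adar1-2KO, so that most of its reads were in Adar1-2KO replicate 3. Its log2 fold change between the mutants, 3.33 ± 1.55, had an unadjusted p of 0.0491 in edgeR and an adjusted p of 0.783, and was 1.86 without that library. The circle of exons 2 to 6, at chr7:57102693-57157886, had 15, 6 and 9 Illumina reads in WT, 6, 0 and 15 in Adar2KO, then 0 in all 3 Adar1-2KO libraries. With 3 reads put in place of the pooled 0, it was 14.0-fold lower in Adar1-2KO than in WT (edgeR unadjusted p of 0.0101, adjusted 0.718). This figure leaves out the spread between libraries, and 59.1% of all tested circles were at 0 in Adar1-2KO replicate 3. ONT went the other way for this circle: 0 reads in both WT libraries, 0, 0 and 3 in Adar2KO, then 9, 0 and 13 in Adar1-2KO. The authors' deposited table gave this circle a log2 fold change of −4.18 with an unadjusted p of 0.00757 and an adjusted p of 0.911 in Adar1-2KO against WT.

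Beta subunit circles spread widely within groups. Gabrb1 circles stood at 51.8, 42.7 and 84.2 CPM in WT, 84.9, 51.9 and 57.9 in Adar2KO, then 78.6, 65.7 and 84.4 in Adar1-2KO, and the groups overlapped. The log2 fold changes against WT were 0.13 ± 0.36 and 0.36 ± 0.36. The leading circle of exons 6 to 8 had 92, 69 and 59 reads in WT, 95, 71 and 91 in Adar2KO, then 159, 62 and 290 in Adar1-2KO. The smaller circle of exons 6 to 7, whose sequence is printed above, came and went between libraries: 0, 0 and 51 reads in WT, 45, 0 and 51 in Adar2KO, then 0, 72 and 6 in Adar1-2KO. A circle at chr5:72006556-72026962 was mostly in the libraries numbered 1, with 20, 3 and 4 reads in WT, 33, 2 and 0 in Adar2KO, then 42, 0 and 0 in Adar1-2KO. Libraries of different groups that share a number are not shown to be related.

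On ONT the Gabrb1 host stood at 89.4 and 64.8 CPM in WT, 45.8, 17.5 and 53.0 in Adar2KO, then 31.8, 34.4 and 150 in Adar1-2KO. All Adar2KO values were below both WT values, with a log2 fold change of −0.99 ± 0.75 (edgeR adjusted p = 0.911). Of the 102 reads in Adar1-2KO replicate 3, 50 belonged to an antisense circle at chr5:72305445-72305816 that no other library listed. ONT and Illumina therefore ordered the Gabrb1 groups differently.

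Gabrb2 circles stood at 61.7, 51.3 and 53.5 CPM in WT, 58.2, 68.9 and 51.4 in Adar2KO, then 48.5, 72.8 and 97.9 in Adar1-2KO. The groups overlapped and the log2 fold changes against WT were 0.10 ± 0.34 and 0.40 ± 0.34, the latter 0.12 without Adar1-2KO replicate 3. The leading circle of exons 7 to 9 had 128, 83 and 56 reads in WT, 115, 97 and 119 in Adar2KO, then 125, 110 and 393 in Adar1-2KO. Its log2 fold change in Adar1-2KO against WT was 0.68 ± 0.54, and 0.20 without replicate 3. A single-block circle at chr11:42517371-42519300 had 30, 15 and 6 reads in WT, 15, 30 and 18 in Adar2KO, then 16, 9 and 0 in Adar1-2KO. The circle of exons 5 to 9, at chr11:42378023-42488612, was thin, with 8, 2 and 2 reads in WT, 13, 0 and 0 in Adar2KO, then 4, 18 and 12 in Adar1-2KO. ONT gave Gabrb2 host values of 64.5 and 21.6 CPM in WT, 56.5, 46.0 and 46.1 in Adar2KO, then 40.9, 58.4 and 97.3 in Adar1-2KO.

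The gamma subunit gene Gabrg3 had the lowest unadjusted p of the 6 hosts. Its circles stood at 35.6, 49.0 and 78.3 CPM in WT, 61.6, 54.9 and 57.9 in Adar2KO, then 99.7, 103 and 80.0 in Adar1-2KO. Every Adar1-2KO library lay above every WT and Adar2KO library, by a small margin over WT replicate 3. The log2 fold change in Adar1-2KO against WT was 0.80 ± 0.35 (edgeR unadjusted p of 0.0418, adjusted 0.677), 0.91 without Adar1-2KO replicate 3 and 0.96 among the libraries of flow cell 1, where Adar1-2KO had 1 library. Against Adar2KO it was 0.70 ± 0.34 (edgeR adjusted p = 0.737). With 0.0807% of all hosts passing against WT, the Gabrg3 host was not among them.

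Nearly all of this came from the circle of exons 4 to 5. It had 102, 85 and 110 reads in WT, 153, 114 and 168 in Adar2KO, then 327, 234 and 324 in Adar1-2KO, or 32.4, 37.8 and 69.0, then 59.3, 49.4 and 56.2, then 97.1, 103 and 78.7 CPM. The Adar1-2KO libraries were again above all others. The deposited CIRI2 tables, which also count junction reads, listed 176, 90 and 109 reads of this circle in WT and 156, 110 and 160 in Adar2KO. For Adar1-2KO replicates 2 and 3 they listed 220 and 310. The low value of WT replicate 1, 102 reads by CIRIquant, thus depended on the counting tool. With the CIRIquant reads, the log2 fold change of this circle against WT was 1.0 ± 0.48 (edgeR unadjusted p of 0.0545, adjusted 0.746). On ONT it had 6 and 4 reads in WT, 15, 14 and 9 in Adar2KO, then 25, 13 and 17 in Adar1-2KO. Scaled to depth, these were 27.7 and 19.6, then 40.2, 33.4 and 20.8, then 59.5, 44.4 and 26.2 CPM, and the groups overlapped. No other Gabrg3 circle entered the test: the next in reads, at chr7:56422985-56446743, had 17 in all, and that at chr7:56973396-56983166 had 14, of which 13 fell in WT replicate 2.

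Gephyrin circles were the most abundant. Gphn stood at 462, 359 and 484 CPM in WT, 496, 433 and 529 in Adar2KO, then 534, 492 and 791 in Adar1-2KO. The Adar1-2KO libraries were above the WT libraries, narrowly in replicate 2 and widely in replicate 3. The log2 fold change was 0.48 ± 0.24 against WT (edgeR unadjusted p of 0.0773, adjusted 0.704), 0.23 without Adar1-2KO replicate 3 and 0.21 among the libraries of flow cell 1. On ONT the same order held, with 626 and 583 CPM in WT, 638, 609 and 709 in Adar2KO, then 728, 664 and 805 in Adar1-2KO, at 0.28 ± 0.20 against WT (edgeR adjusted p = 0.670). Thus on Illumina 0 of the 6 hosts had no overlap between Adar2KO and WT, 2 (Gabrg3 and Gphn) between Adar1-2KO and WT, and 1 (Gabrg3) between the mutants, beside 11.6%, 13.7% and 12.6% of all hosts tested, in either direction. On ONT, where WT had 2 libraries, these counts were 1 (Gabrb1, lower), 1 (Gphn) and 0, beside 31.0% (Adar2KO against WT), 26.6% (Adar1-2KO against WT) and 22.5% of all hosts.

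**Figure D2:**
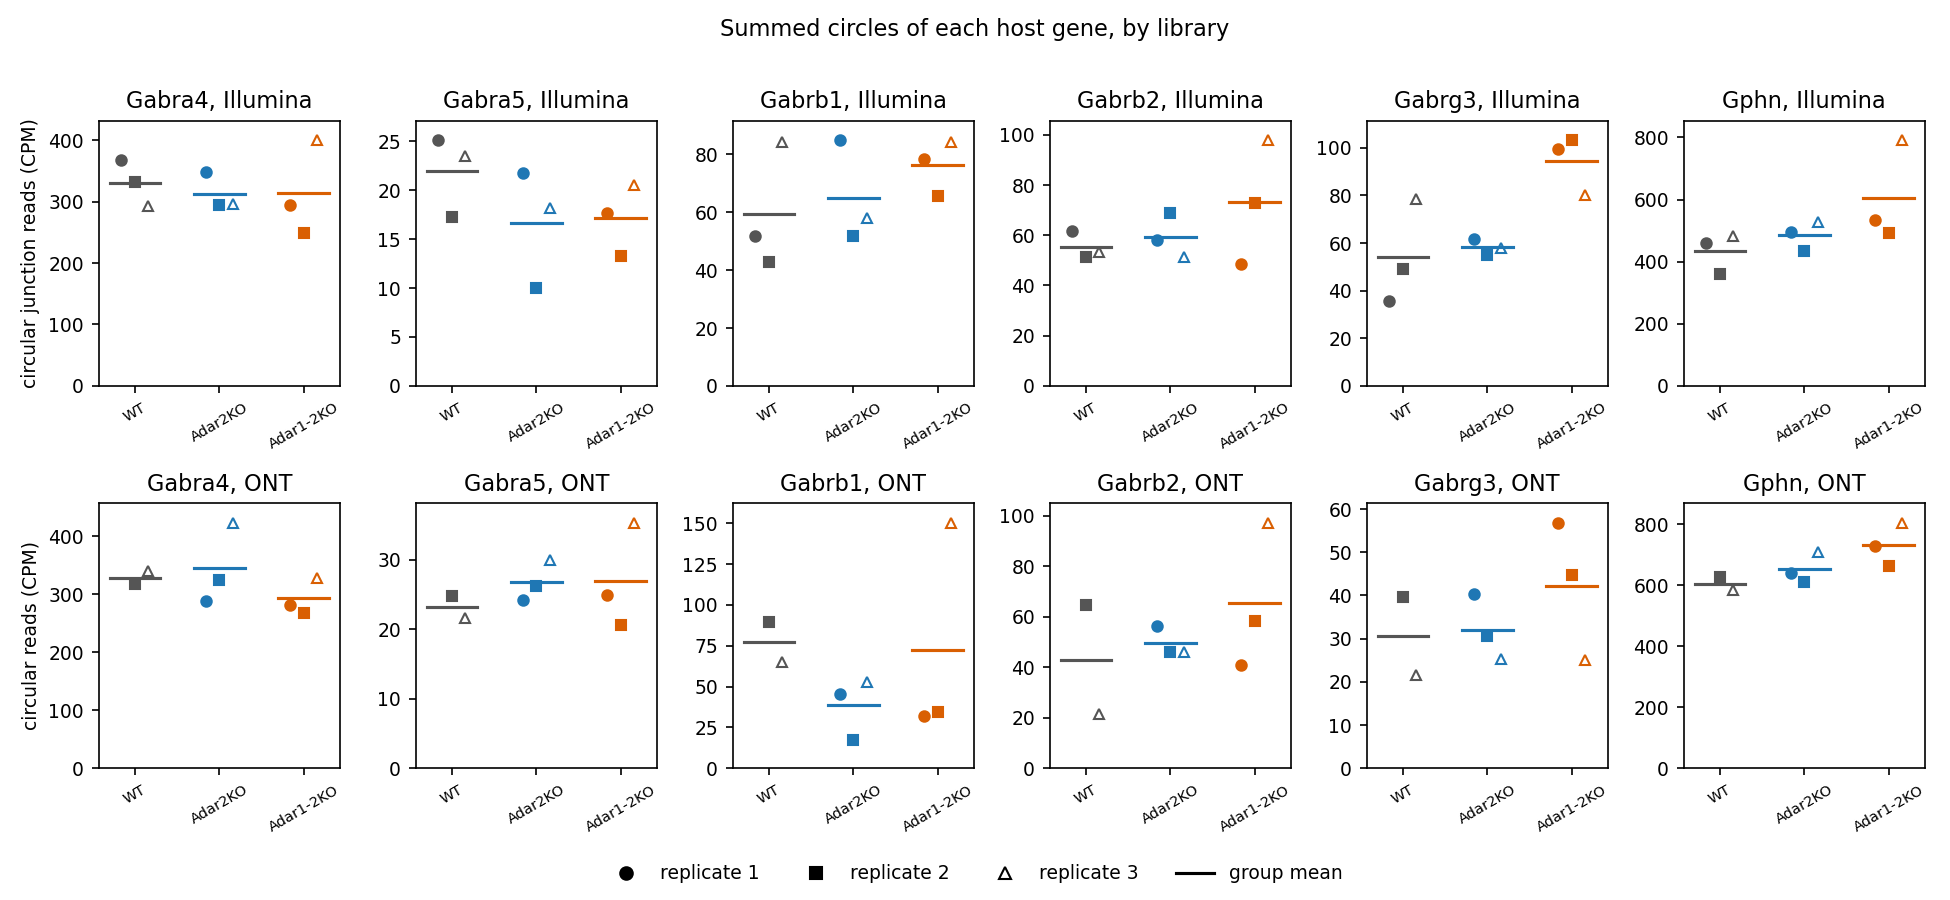
Each panel gives the summed circles of a host gene in CPM (y axis, from 0) for each library of the 3 genotypes, Illumina above and ONT below. Symbols give the replicate, lines the group mean. For Gabrg3 on Illumina the Adar1-2KO points (80.0 to 103 CPM) lie above the WT points (35.6 to 78.3 CPM), and for Gphn replicate 3 of Adar1-2KO lies highest, at 791 CPM.

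Single circles were tested in the same way. Of the 50 tested circles of these genes on Illumina, edgeR and DESeq2 each called 0 in all 3 comparisons. At an unadjusted edgeR p under 0.05 stood 0 in Adar2KO against WT, 3 in Adar1-2KO against WT and 3 in Adar1-2KO against Adar2KO. Over all 38297 tested circles, 0.0209%, 0.0627% and 0.0209% passed, and 1.82%, 6.74% and 6.38% had an unadjusted p under 0.05. The median log2 fold change of the 50 was 0.13, 0.00 and 0.04, and that of all tested circles 0.04, −0.26 and −0.31. Against WT, 25 of the 50 were higher and 25 lower in Adar1-2KO, and 32 were higher and 18 lower in Adar2KO. The groups did not overlap for 3, 7 and 6 of the 50 in the 3 comparisons, beside 10.9%, 12.6% and 11.8% of all tested circles. In Adar1-2KO against WT the 7 were 3 higher and 4 lower, beside 2.77% and 9.81% of all. The 3 higher were the Gabrg3 circle of exons 4 to 5, the Gphn circle of exons 5 to 7 and that at chr12:78528073-78637445. The 4 lower were 3 Gabra5 circles and a Gphn circle at chr12:78538812-78540831. The circles at unadjusted p under 0.05 against WT were the Gabra5 circle of exons 2 to 6 and a pair from Gphn. Between the mutants they were the same Gabra5 circle, the Gabra5 circle of exons 3 to 5 and a Gphn circle at chr12:78528073-78637445.

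**Figure D3:**
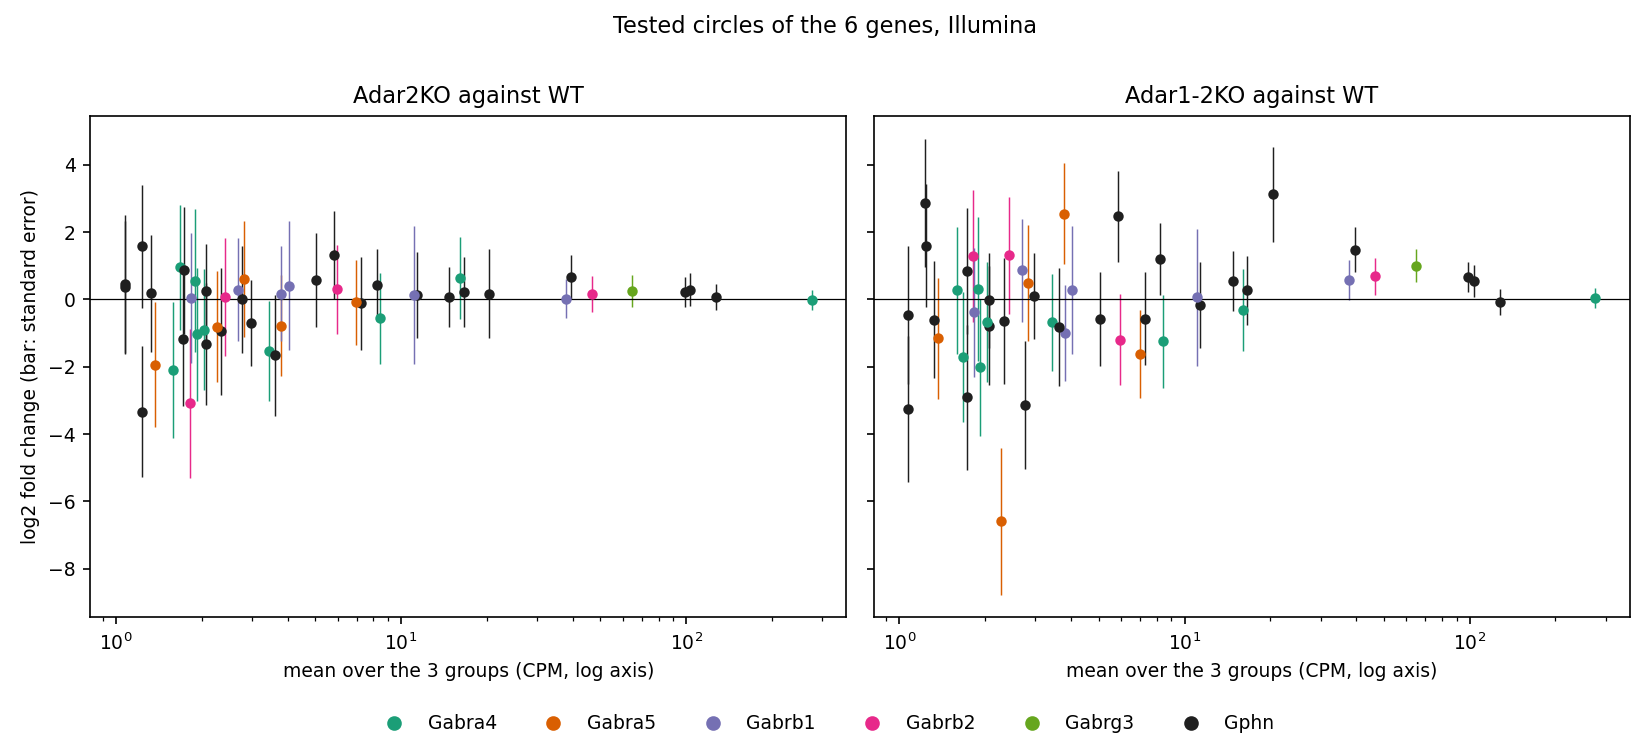
Points are the 50 tested Illumina circles, coloured by gene, with the mean level over the 3 groups on a log x axis (CPM) and the edgeR log2 fold change on the y axis; bars are standard errors. The abundant circles at the right lie near 0 in Adar2KO against WT, the scarce ones carry wide errors, and the lowest point in Adar1-2KO is the Gabra5 circle of exons 2 to 6, which had 0 reads there.

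The main Gphn circles that start at exon 5 had their highest group means in Adar1-2KO, short of the threshold of the test. The circle of exons 5 to 8 had 18 and 16 ONT reads in WT, 48, 44 and 38 in Adar2KO, then 64, 59 and 191 in Adar1-2KO. In CPM these were 83.02 and 78.6, then 129, 105 and 87.9, then 152, 201 and 295, so that the 3 groups did not overlap. In each of the 3 comparisons 2 of the 13 tested ONT circles of these genes had no overlap, beside 28.9%, 23.7% and 21.7% of all tested. The log2 fold change on ONT was 1.42 ± 0.40 against WT (edgeR unadjusted p of 0.00436, adjusted 0.463) and 1.11 without Adar1-2KO replicate 3, and 1.02 ± 0.33 against Adar2KO (edgeR unadjusted p of 0.0102, adjusted 0.271). It was the only one of the 13 tested ONT circles of these genes at an unadjusted p under 0.05 in either comparison, and none was in Adar2KO against WT. Of all 10367 ONT circles tested, 7.49% and 10.6% were at that level in these comparisons and 4.28% in Adar2KO against WT. edgeR and DESeq2 called 0 of the 13, where 0.00965%, 0% and 0.492% of those ONT circles passed edgeR's test in the same order of comparisons. Illumina gave 72.1, 69.8 and 97.2 CPM in WT, 77.1, 62.0 and 137 in Adar2KO, then 84.0, 118 and 174 in Adar1-2KO, which overlapped, with a log2 fold change of 0.66 ± 0.45 against WT, 0.36 without replicate 3 and 0.59 among the libraries of flow cell 1.

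The circle of exons 5 to 7, at chr12:78501531-78539084, had 65, 27 and 54 Illumina reads in WT, 66, 49 and 174 in Adar2KO, then 164, 91 and 394 in Adar1-2KO. In CPM all Adar1-2KO values (48.7, 40.01 and 95.7) exceeded all WT values (20.6, 12.0 and 33.9), but not all Adar2KO values (25.6, 21.2 and 58.2). Its log2 fold change against WT was 1.47 ± 0.67 (edgeR unadjusted p of 0.0445, adjusted 0.730), 1.02 without Adar1-2KO replicate 3 and 0.88 among the libraries of flow cell 1. ONT listed 2 and 7 reads in WT, 10, 0 and 7 in Adar2KO, then 19, 7 and 46 in Adar1-2KO, which overlapped once scaled to depth.

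As a share of all Gphn reads, circles starting at exon 5 made up 21.9%, 25.9% and 30.1% in WT on Illumina, 23.1%, 22.0% and 38.6% in Adar2KO, then 27.2%, 33.7% and 38.0% in Adar1-2KO. On ONT the shares were 15.9% and 21.3%, then 24.5%, 15.8% and 14.6%, then 26.6%, 34.2% and 43.4%. The ONT groups of Adar1-2KO and WT did not overlap, while those on Illumina did. Circles starting at exon 12 mirrored this on ONT, with 69.8% and 63.9% in WT, 59.9%, 57.2% and 60.4% in Adar2KO, then 52.8%, 48.2% and 37.5% in Adar1-2KO. On Illumina they took 50.7%, 51.3% and 50.0% in WT, 53.7%, 58.7% and 36.0% in Adar2KO, then 47.6%, 43.2% and 33.5% in Adar1-2KO. The shares of a gene's circles must sum to a whole, so a rise in one group of circles lowers the others. No test was run on these shares.

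The exon 12 circles shared a start and differed in where they ended. The longer one, of exons 12 to 18, stood at 133, 124 and 127 CPM in WT on Illumina, 150, 144 and 109 in Adar2KO, then 148, 150 and 64.6 in Adar1-2KO. Its shorter neighbour, of exons 12 to 17, stood at 99.1, 50.7 and 102, then 117, 105 and 85.6, then 111, 56.7 and 202 CPM. Of the reads of both, the shorter circle held 42.7%, 29.1% and 44.5% in WT, 44.0%, 42.3% and 44.1% in Adar2KO, then 42.8%, 27.4% and 75.7% in Adar1-2KO, so that replicate 3 stood apart. ONT showed the same library apart, with 26.1% and 28.4%, then 36.5%, 21.1% and 24.7%, then 39.1%, 34.5% and 62.0%. On ONT the longer circle was lower in all Adar1-2KO libraries (226, 188 and 120 CPM) than in WT (300 and 236) and Adar2KO (233, 277 and 310), with a log2 fold change against WT of −0.59 ± 0.32 (edgeR adjusted p = 0.736). Illumina did not show this order.

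**Figure D4:**
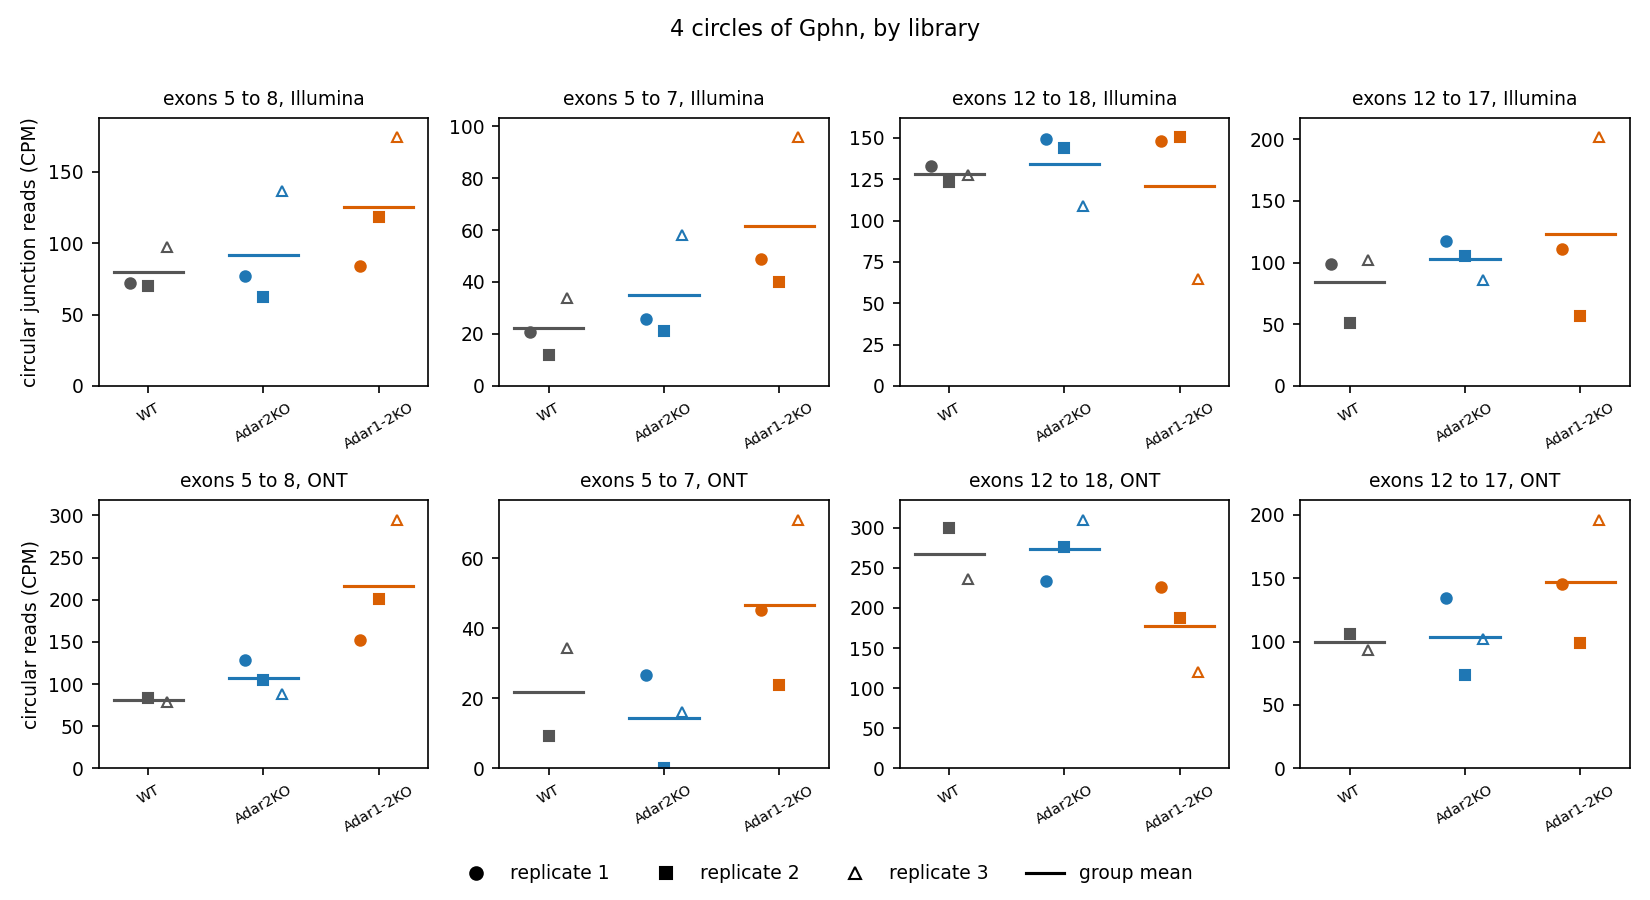
Each panel gives a Gphn circle in CPM (y axis, from 0) for each library, Illumina above and ONT below. Symbols give the replicate, lines the group mean. The exons 5 to 8 circle on ONT lies at 78.6 to 83.02 CPM in WT and at 152 to 295 CPM in Adar1-2KO, and in the exons 12 to 18 and 12 to 17 panels replicate 3 of Adar1-2KO lies at opposite ends.

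Some thin Gphn circles rested on single libraries. The circle at chr12:78538812-78551525, which matched exons 7 to 9 of the Gphn-202 transcript and holds a 108-base exon, had 21, 13 and 7 Illumina reads in WT, 7, 2 and 46 in Adar2KO, then 11, 7 and 583 in Adar1-2KO. Its log2 fold change against WT of 3.12 ± 1.41 (edgeR unadjusted p of 0.0438, adjusted 0.730) became −0.81 without Adar1-2KO replicate 3. ONT listed 17 reads of it in that library, 3 in Adar2KO replicate 1 and 0 in the others. A circle of exons 11 to 18, at chr12:78609630-78684353, had 60, 14 and 14 Illumina reads in WT, 33, 32 and 32 in Adar2KO, then 59, 30 and 0 in Adar1-2KO. Its ONT reads were 5 and 3 in WT, 10, 40 and 35 in Adar2KO, then 23, 17 and 0 in Adar1-2KO, so the library without it was the same on both platforms. The circle at chr12:78528073-78637445 was the reverse: 1, 2 and 0 reads in WT, 0 in all 3 Adar2KO libraries and 7, 10 and 14 in Adar1-2KO. With 3 reads put in place of the pooled 0 of Adar2KO, it was 8.34-fold higher in Adar1-2KO (edgeR unadjusted p of 0.0164, adjusted 0.764). That figure leaves out the spread between libraries. The deposited CIRI2 tables, which also count junction reads, listed 5 reads of it in Adar2KO replicate 3.

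The remaining Gphn circles named for a low p were scarce. A circle at chr12:78501531-78637445 had 3, 4 and 5 reads in WT, 7, 7 and 26 in Adar2KO, then 12, 5 and 109 in Adar1-2KO, with most of its Adar1-2KO reads in replicate 3. Circles at chr12:78655919-78674034, chr12:78538812-78540831 and chr12:78551391-78684353 had 0 reads in Adar1-2KO replicate 3 and 0 to 31 in the other libraries. For the middle one, with 12, 4 and 10 reads in WT, 27, 0 and 4 in Adar2KO, then 4, 0 and 0 in Adar1-2KO, the Adar1-2KO libraries were all below WT in CPM. The other 2 overlapped between WT and Adar1-2KO.

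The deposited files also count linear, forward-splice reads at the ends of each circle, and the ratio of back-splice to forward-splice reads gives a circular share. The RNA was treated with RNase R, which removes linear RNA, so this is not the share in the brain. Only 10 of the 50 circles had at least 20 reads of both kinds together in all 9 libraries. limma called 0 of the 10 in all 3 comparisons, while 0.0787%, 0.0944% and 0.189% of 6353 circles passed. At an unadjusted p under 0.05 limma gave 0 of the 10, beside 2.93%, 4.82% and 5.12% of those circles. The forward-splice counts of these genes were erratic. The leading Gabra4 circle had 0, 226 and 11 forward-splice reads in WT, 191, 0 and 207 in Adar2KO, then 9, 0 and 53 in Adar1-2KO. The Gphn circle of exons 5 to 7 had 0 in 8 libraries and 6750 in Adar1-2KO replicate 3. The Gabrg3 circle was steadier, with 61, 67 and 50 in WT, 32, 57 and 70 in Adar2KO, then 88, 83 and 338 in Adar1-2KO. Its log2 ratio of back-splice to forward-splice reads differed from WT by 0.76 ± 0.85 in Adar2KO, then 0.37 ± 0.85 in Adar1-2KO (limma adjusted p of 1.0 and 0.948), the latter 0.95 without replicate 3.

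Other genes of inhibitory signalling give the setting. Of 14 other GABA-A subunit genes, 7 had enough circle reads to test, and Gabra2, the gene of the alpha 2 subunit, passed edgeR's test in both mutants: 144 ± 6.72 CPM in WT, 540 ± 44.1 in Adar2KO, then 593 ± 57.5 in Adar1-2KO (SD, n = 3). Its log2 fold change was 1.91 ± 0.21 in Adar2KO (edgeR adjusted p = 0.0107) and 2.04 ± 0.21 in Adar1-2KO (edgeR adjusted p = 0.00584). Both mutants lacked Adar2 and carried the Gria2R allele, and a difference from WT in genetic background near Gabra2 was not tested. The other 6 subunit genes did not pass, among them Gabra3, whose transcript is a known recoding target of ADARs, at a log2 fold change of 0.32 ± 0.26 in Adar1-2KO against WT. The median of the 7 was 0.32, beside −0.07 for all hosts. Gephyrin partners and receptor trafficking genes were tested for 23 of 30, and 0 passed, with 6 higher and 17 lower in Adar1-2KO than in WT. Their median was −0.30, beside −0.07 for all hosts, and the split of all hosts into higher and lower was not counted. Among them, Plcl2, a regulator of receptor trafficking, stood at −0.85 ± 0.23 (edgeR adjusted p = 0.609), Ubqln1 at −0.36 ± 0.22, Dlc1 at −0.29 ± 0.21 and Mdga2, which limits synaptic adhesion, at −0.28 ± 0.22. Genes for GABA synthesis, transport and breakdown and for GABA-B receptors were tested for 9 of 13, and 0 passed, with a median of −0.05. Of all 9918 hosts tested, 0.0403% passed in Adar2KO against WT, 0.0807% in Adar1-2KO against WT and 0.101% between the mutants. Gabbr2 and Gabbr1, the GABA-B receptor subunits, stood at −0.05 ± 0.24 and −0.30 ± 0.63, and Abat and Aldh5a1, which break GABA down, at −0.73 ± 0.73 and −0.25 ± 1.24.

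Over the 9 Illumina libraries the host genes whose log2 CPM ran most like each member, among 3233 or 3234 abundant hosts, were Gm18281 and Ntng1 for Gabra4 (Pearson r of 0.922 and 0.904), Wdpcp and Evi5l for Gabra5 (0.849 and 0.822), and Ppp3ca and Uimc1 for Gabrb1 (0.922 and 0.874). For Gabrb2 they were Ctbp2 and Anp32b (0.935 and 0.934), for Gabrg3 Dscaml1 and Arhgap32 (0.914 and 0.856), and for Gphn Dgkb and Pdgfd (both 0.967). These correlations are over libraries that share depth and genotype, and Adar1-2KO replicate 3 is among the points. They were picked as the highest of 3233 or 3234 over 9 points each, so the choice itself favours high values.

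The authors' deposited comparison tables listed 169 circles of these genes among 160909 in Adar1-2KO against WT. Of the 169, 2 had p under 0.05 and 0 had an adjusted p under 0.05, beside 2126 and 54 of all 160909. The other circle at p under 0.05, besides that of Gabra5, was a Gphn circle at chr12:78538955-78569728, to which the authors' deposited table gave a log2 fold change of 3.35 (p of 0.0486, adjusted 0.911). The authors' deposited table for Adar2KO listed 772 circles, each with p under 0.05, and 0 of them came from the 6 genes. It held no circle above that level, so no share over all tested circles can be set beside this count.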

How the data were processed

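Circular RNA was enriched from 5 µg total RNA with RNase R and amplified for 14 cycles, per the labels' protocols, then sequenced on Illumina and ONT. The deposited Illumina files give counts of back-splice and forward-splice reads per circle, made with CIRIquant 1.1.2 on GRCm39 per the file headers; BWA 0.7.17 and DESeq2 2.11.40.8 are named in the submitters' processing notes. The caller of the deposited ONT read counts is not given in the sources used here, and ONT files list no count below 2. The Adar1-2KO CIRIquant values stood 1 column to the right of their headers and were moved back. The authors' comparison tables, as deposited, give log2 fold changes and p-values.

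Counts were fitted with edgeR 4.0.16 in R 4.3.3 (quasi-likelihood test, TMM scaling, all groups in 1 fit, at least 5 reads in at least 3 libraries, Benjamini-Hochberg threshold 0.05). CPM scale reads to the back-splice total of a library (ONT: circular reads) after TMM scaling, and a circle a library does not list counts as 0. Host genes sum every circle whose gene field names them. Circular share was log2 of (back-splice + 0.5)/(forward-splice + 0.5), for circles with at least 20 reads in all 9 libraries, tested with limma 3.58.1. DESeq2 1.42.0 was an alternative. The fits were tested on simulated data.

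The members and gene lists were chosen with earlier results of these data known. Text names all 6 hosts, the 3 circles of each gene with most reads, up to 8 Illumina and 4 ONT circles of lowest p per comparison with WT, up to 4 hosts with most reads per list and those that passed (some of these are not reported here), and the 2 likest hosts of each member with a mean of at least 100 reads. A few other circles were named after their values were seen: the antisense Gabrb1 circle and the Gphn circle from the authors' table. Of the circles, 13 name another gene too.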

Additional observations from a re-analysis of the deposited data

How the results depend on the processing

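Under all the alternatives run, which were DESeq2, its size factors, other filters on low reads, fits of only the groups compared, library sizes from mapped reads, CIRI2 counts, circles naming a single gene, another pseudocount or filter for the circular share, the replicate block, each library left out in turn and, added after the data were seen, the libraries of flow cell 1, 0 circles and 0 hosts of the 6 genes passed. For circles 2098 of 2259 alternative values kept the sign and 161 changed it, with a lowest adjusted p of 0.157. For hosts 573 of 612 kept it and 39 changed it, with a lowest adjusted p of 0.285. Scaling to mapped reads moved the median log2 fold change of all hosts in Adar1-2KO against WT from −0.07 to 0.31. Libraries of different groups that share a number had correlations of −0.06 to 0.19, and those with different numbers −0.21 to 0.18. Of 9 libraries, 4 were closest to one of their own number. The ranges overlapped and the labels name no pairs, so libraries were not treated as pairs in the main fits. With the replicate block 0 circles and 0 hosts of these genes passed in each comparison, and leaving out 1 library gave 0 to 0.

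The counts over all features moved by more than 1.5 times, in the order Adar2KO against WT, Adar1-2KO against WT and Adar1-2KO against Adar2KO. Illumina circles passing were 8, 24 and 8, and at the extremes 1 (flow cell 1), 3 (flow cell 1) and 3 (without Adar2KO replicate 1) up to 95, 434 and 372 with no filter. Illumina hosts were 4, 8 and 10, from 0 (replicate block), 1 (only the 2 groups) and 0 (without Adar2KO replicate 1) up to 94, 251 and 298 with no filter. ONT circles were 1, 0 and 51, from 0 (without WT replicate 3), 0 (DESeq2 size factors) and 8 (without Adar2KO replicate 2) up to 83, 115 and 197 with no filter. ONT hosts were 4, 2 and 58, from 1 (without Adar2KO replicate 1), 0 (at least 10 reads) and 8 (without Adar2KO replicate 3) up to 33 and 89 with no filter and 176 with DESeq2. Circular shares were 5, 6 and 12, from 0 with the replicate block up to 39 (only the 2 groups), 69 and 81 (without Adar1-2KO replicate 1). Gabra5 had 465 Illumina reads over 9 libraries, and ONT 3682 reads over these genes.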
